A study of Mus musculus with 12 samples.

Results

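A list of 10 pro-apoptotic members of the BCL2 family was examined for non-CG methylation (mCH) across their gene bodies in mouse cortex. The term mCH stands for methyl groups on cytosines whose next base is not guanine. Other BCL2 family genes, Bok among them, were set apart in a list of their own. The 10 were taken by name as the BH3-only genes Bcl2l11, Bmf, Hrk, Bbc3, Bid, Bad, Bik and Pmaip1 and the effector genes Bax and Bak1. These were 10 of 23882 genes in the deposited tables, and all 10 were among the 19826 genes that had at least 500 non-CG cytosine calls in every library. The libraries were 4 of a genotype labelled miR29 KO and 4 labelled WT from cortex at postnatal day 40 (P40), and 2 of a genotype labelled Dnmt3a mi5 and 2 labelled WT from cortex at 4 months. All 12 came from mice of C57BL/6 background. The labels do not say which miR-29 genes the miR29 KO mice lacked or in which cells, and "mi5" is kept as given; the titles of those libraries read DNMT3AmiR29MUT. Nothing says whether the replicates of a group were separate animals, and each p-value reflects only the spread among these samples, which may be technical. The study's title concerns the control of non-CG methylation by microRNA-29 during brain maturation, and each mutant was compared with the WT libraries of its own age.

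BCL2 family proteins decide whether the outer mitochondrial membrane stays intact. BH3-only proteins respond to damage or loss of growth factors, block the anti-apoptotic members or activate BAX and BAK, and the last 2 form the pores through which cytochrome c escapes to start the caspases. Neurons lower their readiness for this pathway as they mature, and miR-29 is known in mouse neurons as a repressor of several BH3-only messages, among them those of Bcl2l11, Bmf, Hrk and Bbc3. Separately, miR-29 is known to target Dnmt3a, whose product is the methyltransferase that deposits mCH in neurons after birth.

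The microRNAs named in the labels are shown because the seed, which pairs with target messages, is what the family has in common. RefSeq (GRCm38.p6) lists 3 distinct mature 3p sequences from 4 genes, with Mir29a and Mir29b-1 on chromosome 6 and Mir29b-2 and Mir29c on chromosome 1. Capitals mark bases 2 to 8, the seed.
mmu-miR-29a-3p: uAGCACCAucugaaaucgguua
mmu-miR-29b-3p: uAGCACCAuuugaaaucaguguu
mmu-miR-29c-3p: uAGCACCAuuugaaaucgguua
The seed was the same in all 3, and the sequences differed from one another outside it. The methylation tables say nothing of pairing between these microRNAs and the messages of the 10 genes.

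The 4 miR-29 genes gave a check of the labels. Together they had 26, 69, 54 and 6 calls in the miR29 KO libraries, against 224, 137, 121 and 244 in the P40 WT libraries, and these sums did not overlap. Gene by gene, Mir29a and Mir29c did not overlap, whereas Mir29b-1 had 6, 22, 21 and 0 calls in miR29 KO, against 32, 8, 21 and 23 in P40 WT, and Mir29b-2 had 0, 32, 3 and 6 in miR29 KO, against 115, 34, 30 and 77 in P40 WT. At 4 months they had 129 and 106 calls in the mi5 libraries, against 151 and 200 in WT. Calls over all genes ranged from 624203672 to 701491569 per library in miR29 KO, against 605997533 to 732985426 in P40 WT, and from 399563492 to 408921118 in mi5, against 440703827 to 474003465 in WT at 4 months. The mean level of a tested gene, in percent of calls methylated, was 1.72 to 2.46% in miR29 KO against 1.28 to 1.54% in P40 WT, and 2.31 to 2.35% in mi5 against 1.31 to 1.32% in WT at 4 months. The fourth miR29 KO library stood lowest of its group. Levels over genes do not report expression, so the cortex label was not checked against marker messages. In bulk DNA, a change in the share of a cell type and a change in the level within cells cannot be told apart.

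The 10 genes covered nearly the whole scale of gene-body mCH. Bcl2l11, which encodes BIM, had a WT level at P40 above 99.7% of tested genes, while Bax and Bak1 were below the median gene in every one of the 12 libraries. In P40 WT the order by mean level was Bcl2l11 at 3.55%, Pmaip1 at 2.76%, Bmf at 2.39%, Bik at 2.30%, Bid at 1.72%, Hrk at 1.38%, Bad at 0.817%, Bbc3 at 0.813%, Bak1 at 0.573% and Bax at 0.440%. Neighbours in this order had libraries that stood apart in 2 places, between Bcl2l11 and Pmaip1 and between Hrk and Bad. The miR29 KO libraries also separated Hrk, at 2.31%, from the next gene, Bbc3, at 1.32%. At 4 months this step was not kept in either genotype, since the libraries of Bbc3 overlapped those of Bid and Hrk. Set against the median gene of the same library, Bcl2l11, Pmaip1, Bmf, Bik and Bid were above it in all 12 libraries, Bad, Bak1 and Bax below it in all 12, and Hrk and Bbc3 on either side of it.

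**Figure D1:**
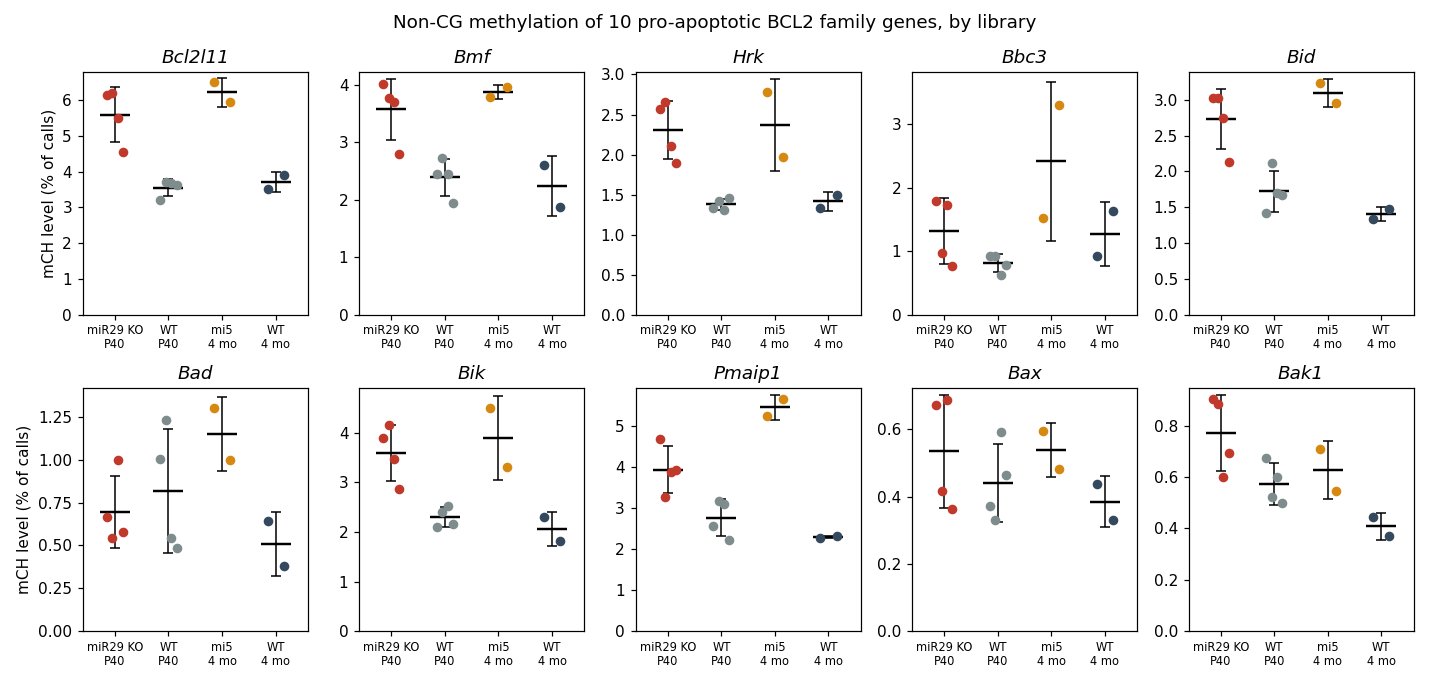
Non-CG methylation level (percent of calls methylated) of each pro-apoptotic gene in each of the 12 libraries, by group, with group means. Bcl2l11 lies highest and Bax and Bak1 lowest in P40 WT, and the mutant libraries of Bcl2l11, Bid and Pmaip1 lie above the WT libraries of their own age.

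Depth set how far each gene could be read. Bcl2l11 had 12135 to 27060 calls per library, Bbc3 had 1508 to 4869, Bak1 had 1829 to 6075 and Bax had 1040 to 3594. In the mi5 libraries, the shallowest, the widest 95% Wilson interval was 6.08 to 6.95% around 6.50% for Bcl2l11 and 0.206 to 1.12% around 0.481% for Bax. These intervals cover counting error only.

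At P40, 7 of the 8 listed BH3-only genes had a higher mCH level in miR29 KO than in WT cortex. Neither Bax nor Bak1 passed the test. No member was lower. The threshold was an adjusted p under 0.05, from a quasi-binomial model of the calls with limma-moderated dispersion. The same test called 76.5% of the 19826 genes higher and 0.0454% lower, so 7 of 10 was close to the share of all genes. The median effect, given as a log2 odds ratio of methylated calls, was 0.65 over the 10 genes and 0.65 over all tested genes. In 6 genes (Bcl2l11, Bmf, Hrk, Bid, Bik and Pmaip1) every miR29 KO library lay above every WT library, which also held for 57.1% of genes.

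Bcl2l11 had levels of 6.14, 6.19, 5.49 and 4.56% in miR29 KO, against 3.20, 3.71, 3.68 and 3.62% in WT. BIM binds all the anti-apoptotic family members and can activate BAX and BAK directly. The groups did not overlap, and the log2 odds ratio was 0.69 (SE 0.10, adjusted p = 5.7e-05).

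Bmf, whose product is held at the cytoskeleton until it is released by stress, had levels of 4.01, 3.77, 3.70 and 2.80% in miR29 KO, against 2.44, 2.72, 2.44 and 1.94% in WT. The fourth miR29 KO library lay just above the highest WT library, and the effect was 0.61 (SE 0.13, adjusted p = 3.2e-04).

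Hrk, a BH3-only gene best known from neurons deprived of growth factor, had levels of 2.57, 2.65, 2.11 and 1.90% in miR29 KO, against 1.34, 1.42, 1.31 and 1.45% in WT. The WT libraries lay close together and below all of the miR29 KO libraries. The log2 odds ratio of 0.75 (SE 0.14, adjusted p = 1.6e-04) was the highest of the 10.

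Bbc3, which encodes PUMA, a target of p53, had levels of 1.79, 0.970, 1.73 and 0.772% in miR29 KO, against 0.924, 0.930, 0.621 and 0.778% in WT. Libraries 1 and 3 of miR29 KO were high and the other two lay within or near the WT range. The log2 odds ratio was 0.71 (SE 0.30, adjusted p = 0.0387), and the call was lost in 4 of the 12 fits that left out a library, with adjusted p from 0.0698 to 0.161: without miR29 KO library 1 or 3, or WT library 3 or 4.

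Bid, the BH3-only protein that caspase 8 cleaves to link death receptors with mitochondria, had levels of 3.03, 3.02, 2.75 and 2.13% in miR29 KO, against 1.42, 2.11, 1.70 and 1.67% in WT. The lowest miR29 KO library was barely above the highest WT library, and the effect was 0.70 (SE 0.14, adjusted p = 2.2e-04). Bik, whose product sits largely at the endoplasmic reticulum, had levels of 3.90, 4.15, 3.46 and 2.86% in miR29 KO, against 2.11, 2.41, 2.52 and 2.16% in WT. No library of one group reached the other, and the log2 odds ratio was 0.68 (SE 0.13, adjusted p = 1.7e-04).

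Pmaip1, which encodes NOXA, the partner of MCL1, had levels of 4.67, 3.26, 3.86 and 3.92% in miR29 KO, against 2.56, 3.16, 3.10 and 2.23% in WT. The groups did not overlap, although the second miR29 KO library lay near the WT range. The effect was 0.54 (SE 0.14, adjusted p = 0.00254), the smallest of the 7 that passed.

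Bad was the one member whose estimate was negative at P40. Its product is kept from binding BCL-XL by phosphorylation under growth factor signalling. Levels were 0.665, 0.542, 0.998 and 0.578% in miR29 KO, against 1.01, 1.23, 0.545 and 0.486% in WT. The groups overlapped, the WT libraries fell into a high and a low pair, and the log2 odds ratio was -0.29 (95% interval -0.91 to 0.33, adjusted p = 0.374).

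The effectors had low levels in both groups. Bax had levels of 0.672, 0.417, 0.686 and 0.363% in miR29 KO, against 0.373, 0.331, 0.592 and 0.463% in WT. Bak1 had levels of 0.902, 0.885, 0.601 and 0.694% in miR29 KO, against 0.675, 0.522, 0.599 and 0.497% in WT. Both overlapped between groups. The log2 odds ratio of Bax was 0.30 (95% interval -0.43 to 1.04, adjusted p = 0.438) and that of Bak1 was 0.42 (95% interval -0.09 to 0.94, adjusted p = 0.125). Both intervals include 0 and the median effect of all genes. With each gene's dispersion taken alone, without moderation, Bak1 passed at P40 (adjusted p = 0.0421).

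**Figure D2:**
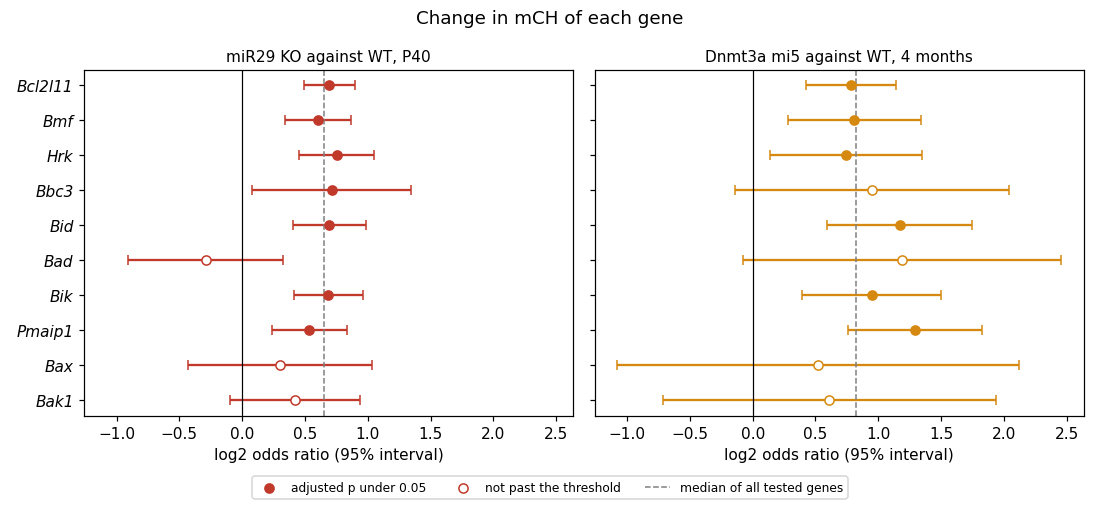
Log2 odds ratios of methylated non-CG calls for each pro-apoptotic gene, mutant over WT, at P40 and 4 months, with 95% intervals and the median over all tested genes for each age. At P40 most points sit near the all-gene median of 0.65, Bad lies below 0, and the 4-month intervals are wider.

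At 4 months, 6 of the 8 listed BH3-only genes were higher in mi5 than in WT cortex, and again neither Bax nor Bak1 passed. No member was lower. The same test called 58.8% of genes higher and 0% lower, and the median effect was 0.88 over the 10 genes and 0.83 over all genes. All members but Bbc3, 9 in number, had both mi5 libraries above both WT libraries, as had 86.2% of genes. Without WT library 2, which leaves a single WT library, the median effect over all genes was 0.83. In that fit the effects of Bmf, Hrk and Bik were 0.59, 0.84 and 0.79.

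Pmaip1 had the highest log2 odds ratio of the 10. Its levels were 5.23 and 5.65% in mi5, against 2.27 and 2.31% in WT, and the log2 odds ratio was 1.29 (SE 0.26, adjusted p = 0.00300). Bid had levels of 3.23 and 2.96% in mi5, against 1.33 and 1.47% in WT, with an effect of 1.17 (SE 0.28, adjusted p = 0.00333). In both genes the 2 libraries of each genotype lay closer to each other than to those of the other genotype.

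Bcl2l11 had levels of 6.50 and 5.94% in mi5, against 3.50 and 3.91% in WT, with an effect of 0.78 (SE 0.17, adjusted p = 0.00300). Bmf had levels of 3.78 and 3.96% in mi5, against 2.60 and 1.87% in WT, with an effect of 0.81 (SE 0.26, adjusted p = 0.0124). The calls of Bcl2l11, Bid and Pmaip1 were kept without any 1 of the 12 libraries. That of Bmf was lost without WT library 2 (adjusted p = 0.123) and without mi5 library 2 (adjusted p = 0.0604).

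Bik had levels of 4.50 and 3.30% in mi5, against 2.29 and 1.81% in WT, with an effect of 0.95 (SE 0.26, adjusted p = 0.00660). Hrk had levels of 2.78 and 1.97% in mi5, against 1.33 and 1.50% in WT, with an effect of 0.74 (SE 0.29, adjusted p = 0.0353). In both the first mi5 library was well above the second. Without that library the adjusted p was 0.0869 for Bik and 0.277 for Hrk. Without WT library 2 it was 0.0661 for Bik and 0.105 for Hrk, and the Hrk call was also lost without WT library 1 (adjusted p = 0.151).

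The other 4 did not pass at 4 months. Bbc3 had levels of 1.53 and 3.31% in mi5, against 0.920 and 1.64% in WT, and the groups overlapped (log2 odds ratio 0.95, SE 0.52, adjusted p = 0.119). Without mi5 library 1 its adjusted p was 0.0480. Bad had levels of 1.30 and 0.999% in mi5, against 0.640 and 0.377% in WT (log2 odds ratio 1.19, SE 0.61, adjusted p = 0.0944). Its 2 mi5 libraries lay above both WT libraries, and it passed when levels in percent or their logarithms were fitted with limma (adjusted p from 0.0214 to 0.0228).

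Bax had levels of 0.596 and 0.481% in mi5, against 0.439 and 0.331% in WT (log2 odds ratio 0.52, 95% interval -1.08 to 2.12, adjusted p = 0.557). Bak1 had levels of 0.707 and 0.547% in mi5, against 0.444 and 0.371% in WT (log2 odds ratio 0.61, 95% interval -0.72 to 1.93, adjusted p = 0.402). The intervals of both effectors at 4 months reach from a lower level to one more than double, so their direction is not settled.

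Most of these differences moved with the library as a whole. Dividing each level by the median gene of its own library gave Bcl2l11 a mean ratio of 2.71 in miR29 KO and 2.72 in P40 WT, and 2.81 in mi5 and 3.04 in WT at 4 months. After each library was centred on its median gene, 0 of the 10 genes were higher in miR29 KO than in WT, with 1.04% of all genes called higher, and 1 was lower, with 3.55% of all genes called lower. Centring removes a shift common to all genes by construction, so a gene near the median effect is left near 0. The spread within groups fell on centring for 9 of the 10 genes, for Bcl2l11 to a dispersion of 3.06 against 12.4 uncentred and for Bid to 1.47 against 6.93.

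After centring, 4 of the 10 estimates at P40 were above 0, and the 1 gene called lower was Bad. Its ratio to the median gene was 0.278, 0.245, 0.484 and 0.354 in miR29 KO, against 0.828, 0.856, 0.400 and 0.399 in WT. The groups still overlapped, because the third miR29 KO library lay above WT libraries 3 and 4. Its centred log2 odds ratio was -0.98 (adjusted p = 0.0425), and the call was lost in 9 of 12 centred fits that left out a library, with adjusted p up to 0.167.

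At 4 months the centred fit called 0 members in either direction, with 0% of all genes higher and 0.0353% lower. At an unadjusted p under 0.05 in the centred fits, Bad was the only member at P40 and there was none at 4 months. Of all 19826 genes, 4092 were under that value at P40 and 1814 at 4 months. Pmaip1 had a ratio to the median gene of 2.36 and 2.56 in mi5, against 1.84 and 1.91 in WT, the widest gap among the members with high levels. Its centred log2 odds ratio was 0.42 and did not pass. The centred estimates of Bax and Bak1 were -0.35 and -0.26 at 4 months and -0.38 and -0.27 at P40, none of which passed.

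**Figure D3:**
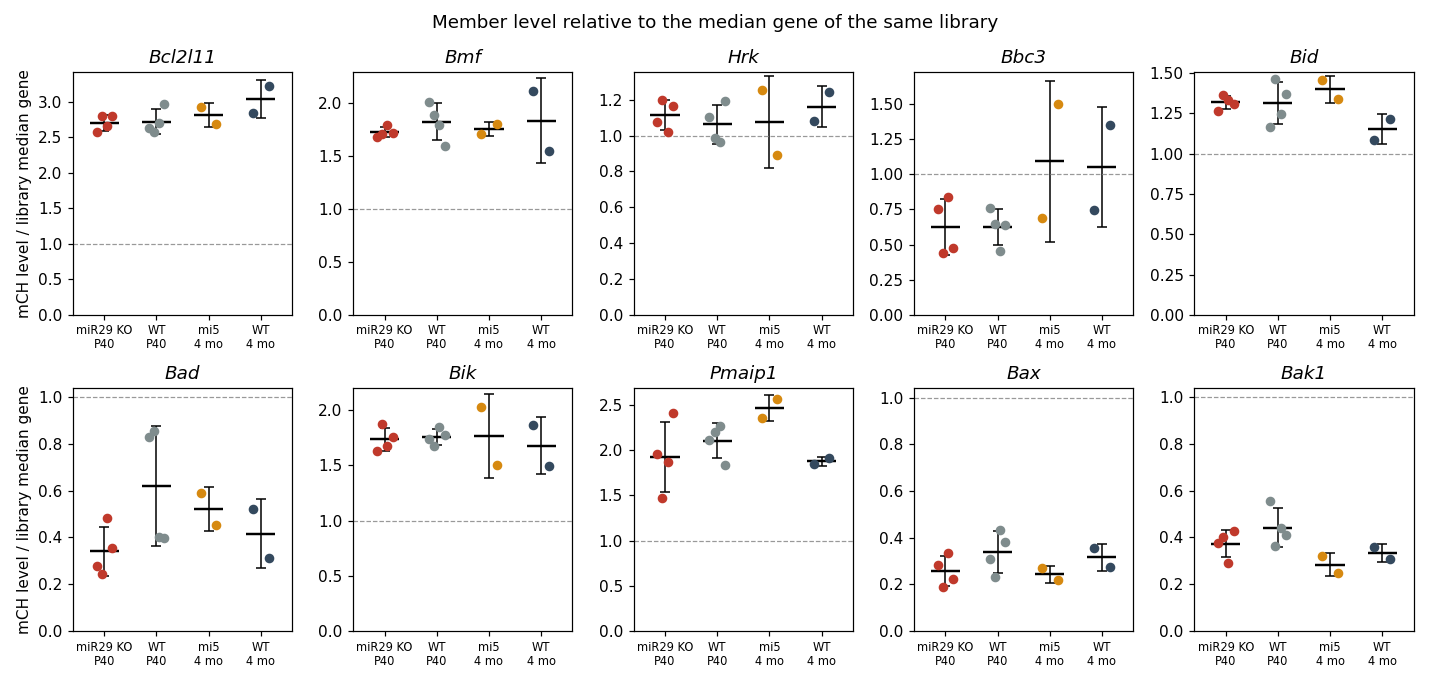
Level of each pro-apoptotic gene divided by the median gene of the same library, for all 12 libraries by group. On this scale Bcl2l11 lies near 2.71 in miR29 KO and 2.72 in P40 WT, and Bad has a mean of 0.340 in miR29 KO and 0.621 in P40 WT.

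The size of the effect also varied with the level of a gene. To keep the level apart from the contrast, genes were put into 10 bins by the WT level of the other age. At P40 the lowest bin had a median effect of 0.24 and held Bax and Bak1, while the 6 highest bins had medians between 0.67 and 0.72 and held the 7 genes that passed. Bax at 0.30 and Bak1 at 0.42 lay at the 55.9 and 70.7 percentiles of their bin. At 4 months Bax at 0.52 and Bak1 at 0.61 lay at the 66.7 and 50.8 percentiles of theirs. The effectors thus stood near other genes of like level. Such levels lie near the floor, since the 1st percentile of gene levels was 0.219 to 0.287% over the libraries. Bax rested on 8 and 5 methylated calls in the mi5 libraries. The part of this floor in the effects of the lowest bins was not tested.

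Bad did not. At P40 it lay at the 2.92 percentile of a bin whose median was 0.44, and at 4 months at the 93.9 percentile of a bin whose median was 0.74. Pmaip1 lay at the 13.2 percentile of its bin at P40 and the 96.7 percentile at 4 months, and Bid at 45.6 and 90.4. These percentiles describe where the estimates fall and carry no test.

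**Figure D4:**
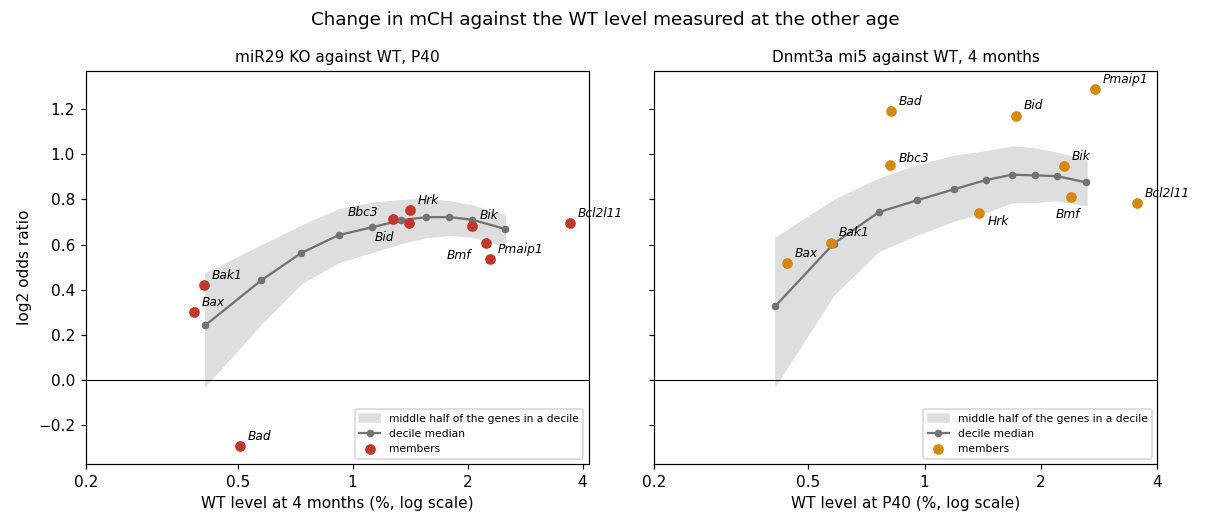
Log2 odds ratio of each pro-apoptotic gene against its WT level at the other age, over the medians and quartiles of all tested genes in 10 bins of that level, for P40 and 4 months. The median over all genes is lowest in the lowest bin, 0.24 at P40 and 0.33 at 4 months, where Bax lies, and Bad lies below the P40 quartiles.

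The 2 mutant effects were compared directly as the P40 effect minus the 4-month effect. No member passed, and 0% of the 19826 genes did in either direction. At an unadjusted p under 0.05 there were 289 genes, of which Bad and Pmaip1 were 2. For Bad the difference in log2 odds ratio was -1.48 (unadjusted p = 0.0403, adjusted p = 0.998), and for Pmaip1 it was -0.75 (unadjusted p = 0.0184, adjusted p = 0.998). Genotype, age and depth all differ between the 2 comparisons and cannot be told apart in this difference.

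In WT cortex alone, the level at 4 months was set against that at P40. None of the 10 genes passed in either direction, with 0.131% of genes higher and 0% lower. None had an unadjusted p under 0.05, beside 462 of all 19826 genes. The limma fits on levels or their logarithms called 0 of the 10 as well, here and for the difference between the mutant effects. Estimates ran from -0.75 for Bad to 0.66 for Bbc3. Bcl2l11 averaged 3.70 ± 0.284% at 4 months (SD, n = 2) and 3.55 ± 0.240% at P40 (SD, n = 4). The ages came as separate sets of libraries of different depth, so age and set cannot be told apart.

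For 3 genes the tables also gave other RefSeq transcripts. Bcl2l11 had 5 transcript rows with 3 distinct sets of calls. The transcript with the most calls (NM_009754) is the one used above. The transcript NM_001284410 averaged 5.31 ± 1.39% in miR29 KO and 3.31 ± 0.122% in P40 WT, and 6.74 ± 0.102% in mi5 and 3.68 ± 0.512% in WT at 4 months. The transcript NM_001291016 averaged 4.14 ± 1.21% in miR29 KO and 2.62 ± 0.211% in P40 WT, and 5.81 ± 0.226% in mi5 and 3.07 ± 0.347% in WT at 4 months. All errors here are SD, with n = 4 per group at P40 and n = 2 at 4 months. Bmf had 4 rows with 3 distinct sets and Bad had 2 rows that differed, and the transcript with the fewest calls gave the same calls for all members. These intervals overlap one another and are not independent measurements.

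The genes next to each member, by RefSeq order on GRCm38.p6, had levels related to its own but often of another size. Bmf, at 2.39% in P40 WT, stood next to Srp14 at 0.70%. Over the 10 genes, the P40 WT level of a member and the mean of its 2 nearest neighbours that do not overlap it had Pearson r = 0.76 and Spearman rho = 0.72, a description over genes that share the same libraries and regional base composition. Bcl2l11, Bid, Bik and Pmaip1 were above both neighbours, and Bbc3, Bad and Bax below both. Bad, at 0.817% in P40 WT, stood between Kcnk4 at 1.44% and Plcb3 at 1.41%. Those neighbours had P40 log2 odds ratios of 0.67 and 0.58, against -0.29 for Bad. At 4 months the order was the other way, with 0.79 and 0.95 against 1.19 for Bad. Bax, at 0.440%, stood between Gys1 at 0.786% and Dhdh at 1.25%. Acoxl overlaps Bcl2l11, Gpr137 overlaps Bad and Ggnbp1 overlaps Bak1, so calls of these 3 members may be shared.

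Other genes of the pathway were taken as 4 lists, of which 57 of 58 genes were tested. In all, 45 were higher in miR29 KO than in P40 WT and 32 were higher in mi5 than in WT at 4 months, and none was lower. Over all genes the shares higher were 76.5% and 58.8%, so both counts were close to the background. Among 12 other BCL2 family genes, most of them anti-apoptotic, 10 were higher in miR29 KO and 8 in mi5, with median log2 odds ratios of 0.55 and 0.79. Bcl2, the founding survival gene of the family, averaged 4.20 ± 0.556% in miR29 KO and 2.68 ± 0.239% in P40 WT (SD, n = 4 each), with a log2 odds ratio of 0.68 (adjusted p = 5.7e-05) close to the 0.69 of Bcl2l11. Bcl2a1d, also higher at P40 (0.46, adjusted p = 0.0235), has near-identical copies and its calls are uncertain. At 4 months Bcl2l14 averaged 4.67 ± 0.0766% in mi5 and 2.01 ± 0.131% in WT (SD, n = 2 each), and its log2 odds ratio was 1.26 (adjusted p = 0.00300). Bcl2l15, at 0.78, had the lowest effect of those called.

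Downstream of mitochondria, 12 of 16 genes of caspase activation were higher in miR29 KO and 6 in mi5, beside 76.5% and 58.8% of all genes. Apaf1, which builds the apoptosome, averaged 3.45 ± 0.631% in miR29 KO and 2.16 ± 0.272% in P40 WT (SD, n = 4 each; log2 odds ratio 0.71, adjusted p = 1.0e-04). Of the called genes of this list, the smallest effects were those of the inhibitors of apoptosis Birc2 at P40 (0.47) and Birc3 at 4 months (0.65).

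Upstream, 11 of 17 regulators of BH3-only genes were higher in miR29 KO and 9 in mi5, beside 76.5% and 58.8% of all genes. Trp63, a p53 relative, had log2 odds ratios of 0.75 at P40 and 0.83 at 4 months. Mapk10, which encodes the neuronal JNK3, had the lowest effects among those called, 0.35 and 0.65. After centring, 2 of these 17 genes were lower at P40, beside 3.55% of all genes. No other gene of the 4 lists passed in either direction. Over all genes the centred fit called 1.04% higher at P40, and 0% higher and 0.0353% lower at 4 months. All 12 genes of the death receptor arm were higher in miR29 KO and 9 in mi5, beside the same shares of all genes. Their medians were 0.79 and 0.93, against 0.65 and 0.83 over all genes, and the list was not tested. Cflar, the inhibitor of caspase 8, had a P40 effect of 0.69, Ngfr one of 0.45, and at 4 months Tnfsf10, which encodes TRAIL, had 1.13 and Fas 0.78.

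**Figure D5:**
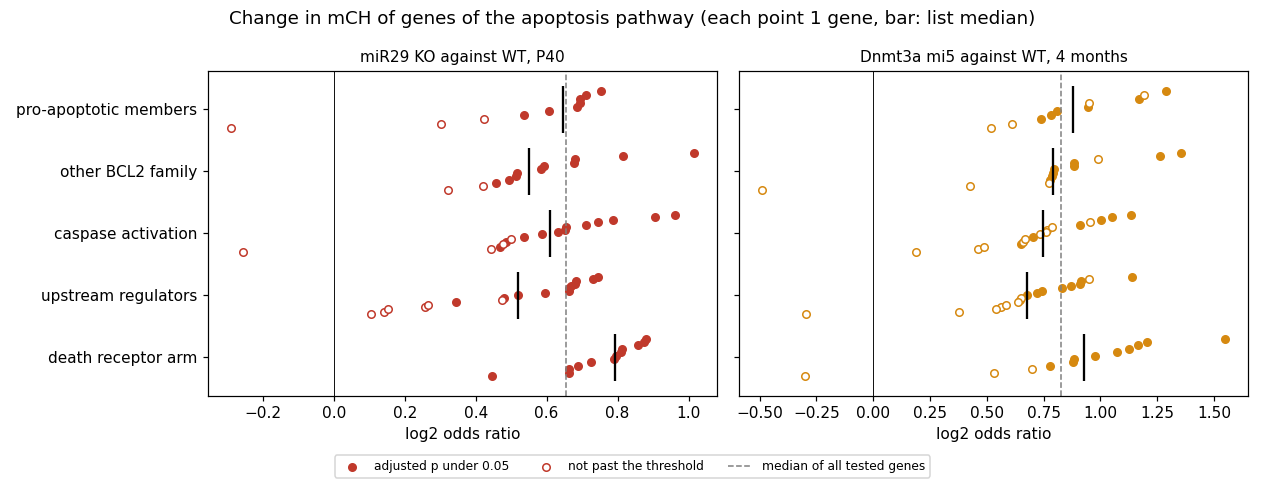
Log2 odds ratios, mutant over WT, of the pro-apoptotic genes and of 4 lists of other apoptosis genes at P40 and 4 months, 1 point per gene, with the median of all tested genes (0.65 at P40, 0.83 at 4 months). Most points of each list are above 0 and near the all-gene median, and Bad is the lowest of the pro-apoptotic genes at P40.

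Marker genes of cortical cell types were read the same way. Of 29 tested in 6 lists, 23 were higher in miR29 KO and 21 in mi5, and none was lower, beside 76.5% and 58.8% of all genes called higher. All 5 astrocyte markers and all 4 tested vascular markers were higher in both mutants. Of 6 excitatory neuron markers 2 were higher in each mutant, and after centring 2 were lower at P40, beside 3.55% of all genes. Of the 5 tested inhibitory neuron markers, 4 were higher in miR29 KO and 3 in mi5. Of 4 tested oligodendrocyte lineage markers, 4 and 3 were higher, and of 5 microglia markers 4 and 4. The mean level of the excitatory list was 1.30 to 1.84% in miR29 KO, against 1.10 to 1.34% in P40 WT, and 2.03 to 2.23% in mi5, against 1.24 to 1.38% in WT at 4 months. The part of cell composition in the levels of the 10 genes was not tested.

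One library of each group had few calls over Ddx3y, Kdm5d and Eif2s3y, which are Y-linked. Within the P40 libraries that had such calls, 3 miR29 KO against 3 WT, the ratio of mean levels was 1.61 for Bcl2l11, 1.71 for Bid and 0.877 for Bad. In the other pair of libraries it was 1.48, 1.30 and 0.809. At 4 months each class held 1 library per genotype. There Pmaip1 had ratios of 2.49 with such calls and 2.26 without, while Bbc3 had 3.59 and 0.933.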

How the data were processed

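Whole-genome bisulfite sequencing of sonicated cortical DNA with a lambda spike-in was used, per the labels' protocols, and BSMAP and mm9 are named in the submitters' processing notes, without a version. Each table the authors deposited has one row per RefSeq transcript, with methylated non-CG calls as a count and all non-CG calls as an expected count. The expected counts in the deposited tables are not always whole (35.7% to 62.2% are) and were rounded; their derivation is not stated in those sources. Levels are methylated over total calls. Rows with repeated identifiers (1395 of 36672) were left out, each gene was represented by its transcript with the most calls, and symbols came from RefSeq GRCm38.p6; 300 rows had none.

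Groups came from the labels. A quasi-binomial logistic model with one mean per group was fitted to all 12 libraries for every gene. Dispersions were moderated by squeezeVar (trend, robust) of limma 3.58.1 in R 4.3.3, and two-sided p-values were adjusted by Benjamini-Hochberg over 19826 genes. On simulated calls for these genes with 200 changed, the P40 comparison recovered 89% of doubled and 75% of halved levels, with 4.65% of calls false. The 4-month comparison recovered 37% and 14%, with 7.27% false. Genes were drawn independently there, with no shift shared by a whole library, so these rates need not hold for the real calls. Replicates all differed by more than sampling noise (lowest chi-square per gene 2.73). The rest used matplotlib 3.10.9, scipy 1.17.1, pandas 2.3.3, numpy 2.4.6 and Python 3.11.15. All members are named; from each pathway list the called gene with the smallest p and the one with the lowest effect are, except 1 that is not reported here. Members, lists and tests were chosen with earlier results of these data known. In all, 26 alternatives covered the minimum of calls, scale, centring, background, block, moderation, transcript, Y-gene coverage and each library left out.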

Additional observations from a re-analysis of the deposited data

How the results depend on the processing

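Centring each library on its median gene took the count of members called higher to 0 at P40 and 0 at 4 months, and the count called lower at P40 to 1 (Bad). Under it the estimate turned at P40 for Bmf (-0.082), Bik (-0.0079), Pmaip1 (-0.15), Bax (-0.38) and Bak1 (-0.27), and at 4 months for Bcl2l11 (-0.083), Bmf (-0.056), Hrk (-0.13), Bax (-0.35) and Bak1 (-0.26); this fit removes the shift common to all genes by construction. Leaving out each library gave 6 to 7 members higher at P40 and 3 to 6 at 4 months, the 3 being without WT library 2, when Bmf, Hrk and Bik were lost. With only the libraries that had Y-gene calls, an alternative chosen after seeing the data, 0 members were higher at 4 months, where 1 library stood against 1 and the lone samples were assumed to vary like the other groups. The Bbc3 call at P40 was also lost with limma on levels or their logarithms, with background subtracted (adjusted p = 0.111), with each gene's own dispersion (adjusted p = 0.103) and with the Y-gene libraries alone (adjusted p = 0.0993). With each gene's own dispersion Bak1 passed at P40 (adjusted p = 0.0421). The Hrk call at 4 months was lost with its own dispersion (adjusted p = 0.0549), and Bad at 4 months passed with background subtracted (adjusted p = 0.0266) and with the 4-month libraries alone (adjusted p = 0.00898). Over all genes, the number called higher at 4 months was 11649. It was 14551 with the 4-month libraries alone, 14339 to 14591 with limma on levels or their logarithms, and 13950 with background subtracted. It was 13328 without miR29 KO library 4 and 10123 with each gene's own dispersion. Leaving out WT library 1, WT library 2 or mi5 library 1 leaves a single library in a group. The median effect over all genes was then 0.84, 0.83 and 0.81, and it was 0.81 with the Y-gene libraries alone. Outside centring (704 at P40, 7 at 4 months), genes called lower numbered 2 to 35 at P40 and 0 to 39 at 4 months. A minimum of 2000 calls left Bbc3, Bax and Bak1 untested. At P40, correlations of deviations ran from -0.0480 to 0.101 for same-numbered libraries and from -0.126 to 0.197 for the rest, with no sign of pairing by number. At 4 months, with 2 libraries per group, the deviations mirror each other, so pairing could not be read. The replicate block kept 7 members higher at P40 and 6 at 4 months, and it could not be fitted for age. Depth per library was lowest for Bax, at 1040 calls, and the 4-month comparison rests on 2 libraries per group.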
